A study of Arabidopsis thaliana with 8 samples.

Results

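The JAZ repressors described here are 10 genes of Arabidopsis thaliana, JAZ1, JAZ2, JAZ3, JAZ5, JAZ6, JAZ7, JAZ8, JAZ9, JAZ10 and JAZ12, chosen by gene identifier from 24279 genes listed in at least 1 library. On chromosome 1 lie JAZ1 (AT1G19180, 6621777 to 6623668), JAZ2 (AT1G74950, 28148574 to 28150446), JAZ5 (AT1G17380, 5955155 to 5957511), JAZ6 (AT1G72450, 27273968 to 27276562), JAZ8 (AT1G30135, 10596352 to 10597341) and JAZ9 (AT1G70700, 26654529 to 26657350). JAZ7 (AT2G34600) lies on chromosome 2 at 14573030 to 14573952, JAZ3 (AT3G17860) on chromosome 3 at 6119707 to 6123044, and JAZ10 (AT5G13220) and JAZ12 (AT5G20900) on chromosome 5 at 4218786 to 4221077 and 7090704 to 7092539 (TAIR10.1). All 10 passed the filter on low counts that left 20262 genes for testing. RNA had been taken from roots of 6-d-old seedlings after 6 h in nutrient solution, and the 8 libraries fall into 4 groups of n = 2. The groups are the mutant line cml24-2 with 10 µM AlCl3, cml24-2 with 0 µM AlCl3, wild type Col with 10 µM AlCl3 and wild type Col with 0 µM AlCl3. CML24, also named TCH2, encodes a calmodulin-like calcium sensor that was first found as a touch-induced gene. The mutant is a single line, and the labels do not describe its lesion. Nor do they state that the replicates were grown apart, so a p-value here reflects the spread of these libraries alone, which may be technical.

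JAZ proteins are the repressors of jasmonate signalling. In the absence of hormone they bind MYC2 and related transcription factors and recruit the adaptor NINJA and the co-repressor TPL, which keeps jasmonate-responsive genes off. Bioactive jasmonoyl-isoleucine glues a JAZ protein to the F-box receptor COI1, the JAZ protein is degraded, and the released MYC factors activate their targets. Most JAZ genes are themselves such targets, so JAZ transcript rises soon after jasmonate, wounding or touch and renews the repressors. The members are not interchangeable: JAZ7 and JAZ8 bind co-repressors directly and lack the usual degradation signal, JAZ10 makes splice forms that resist degradation, and JAZ12 is stabilised by the ubiquitin ligase KEG.

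MYC factors bind the G-box, CACGTG, which is its own reverse complement, and the related T/G-box, AACGTG or CACGTT on the other strand. A 6-base site cannot be both. These were searched on both strands in the 300 bases before each annotated gene start. The windows of the 5 members that the tests below turn on are given 5′ to 3′ on the gene's strand, in lower case with matches in capitals. They come from the TAIR10.1 assembly with its RefSeq annotation, at chr1:28150447-28150746 (minus strand) for JAZ2, chr1:5957512-5957811 (minus) for JAZ5, chr1:27276563-27276862 (minus) for JAZ6, chr2:14572730-14573029 (plus) for JAZ7 and chr5:7090404-7090703 (plus) for JAZ12. The deposited tables name no build, but for all 13725 genes with 1 transcript their listed length equalled the length of that transcript in this annotation.
JAZ2: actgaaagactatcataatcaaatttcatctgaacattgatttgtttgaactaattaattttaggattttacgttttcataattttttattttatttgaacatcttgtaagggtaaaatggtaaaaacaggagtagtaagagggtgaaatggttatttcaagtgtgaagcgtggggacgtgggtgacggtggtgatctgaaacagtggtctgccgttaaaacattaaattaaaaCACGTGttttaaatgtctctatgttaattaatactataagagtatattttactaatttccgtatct
JAZ5: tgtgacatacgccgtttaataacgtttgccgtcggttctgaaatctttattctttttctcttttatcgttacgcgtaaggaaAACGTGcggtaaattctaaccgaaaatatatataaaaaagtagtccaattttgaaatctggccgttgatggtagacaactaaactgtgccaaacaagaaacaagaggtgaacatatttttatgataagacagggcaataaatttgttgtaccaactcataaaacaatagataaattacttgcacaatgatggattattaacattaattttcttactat
JAZ6: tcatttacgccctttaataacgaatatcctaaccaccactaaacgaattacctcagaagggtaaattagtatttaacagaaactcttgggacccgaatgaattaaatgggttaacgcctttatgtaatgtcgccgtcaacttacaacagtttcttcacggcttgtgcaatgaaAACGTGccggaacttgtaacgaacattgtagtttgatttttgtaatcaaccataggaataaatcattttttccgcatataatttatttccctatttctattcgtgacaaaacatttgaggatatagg
JAZ7: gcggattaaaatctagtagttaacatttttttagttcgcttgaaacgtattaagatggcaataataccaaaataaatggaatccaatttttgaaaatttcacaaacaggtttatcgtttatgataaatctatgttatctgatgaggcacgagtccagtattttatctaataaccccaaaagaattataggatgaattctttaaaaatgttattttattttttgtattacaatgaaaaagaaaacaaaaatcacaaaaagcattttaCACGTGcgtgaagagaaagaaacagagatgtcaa
JAZ12: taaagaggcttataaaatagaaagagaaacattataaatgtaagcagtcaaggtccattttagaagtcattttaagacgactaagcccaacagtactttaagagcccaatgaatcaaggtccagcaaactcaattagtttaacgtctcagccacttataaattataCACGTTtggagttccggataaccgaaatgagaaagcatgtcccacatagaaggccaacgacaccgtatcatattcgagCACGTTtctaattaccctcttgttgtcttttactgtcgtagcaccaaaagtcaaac

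At least 1 of these motifs stood in the windows of 7 of 10 members, or 70%, against 4104 of 27443 promoters of all genes, or 14.95%. The G-box was in 4 members, JAZ2, JAZ3, JAZ7 and JAZ8, or 40%, against 7.087% of all promoters. The T/G-box was also in 4, JAZ3, JAZ5, JAZ6 and JAZ12, against 8.709% of all promoters. In JAZ2 the G-box lay 66 to 61 bases before the gene start, in JAZ7 34 to 29 bases and in JAZ8 10 to 5 bases. JAZ5 had its T/G-box 218 to 213 bases before the start, JAZ6 127 to 122 bases, and JAZ12 had 2, at 134 to 129 and at 56 to 51 bases. JAZ3 carried 2 G-boxes and 1 T/G-box. No match lay in this window of JAZ1, JAZ9 or JAZ10, which says nothing about sites elsewhere. A match is a run of letters and not a measured binding site.

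**Figure D1:**
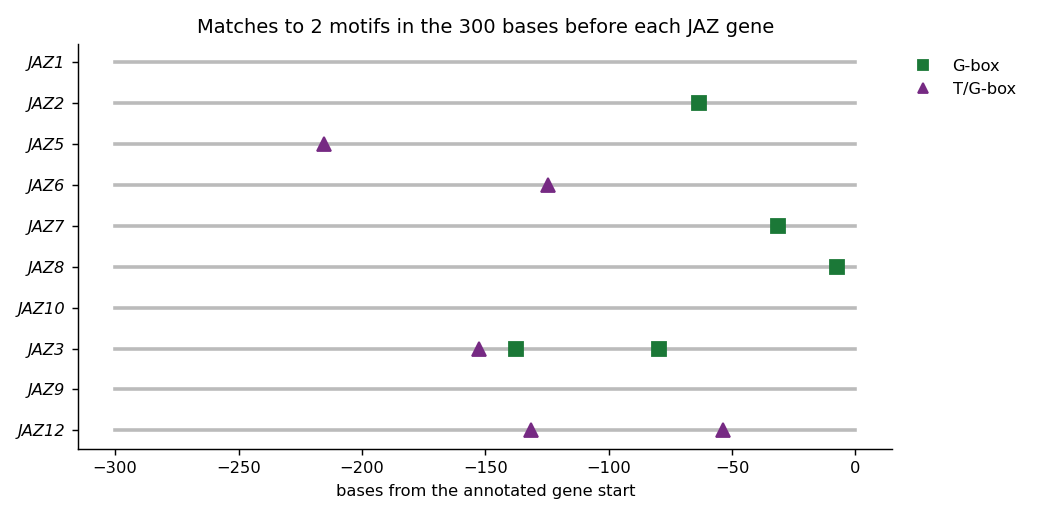
Matches to the G-box and the T/G-box in the 300 bases before the annotated start of each JAZ gene; the horizontal axis is the distance from the gene start in bases and each row is 1 gene. JAZ3 has 3 matches, JAZ12 has 2, and JAZ1, JAZ9 and JAZ10 have none.

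The libraries held 11743433 to 12188917 expected counts, so 3 counts in a single library stand for 0.246 to 0.255 CPM, the count relative to the normalized library total. CML24 itself was read at 132 and 95 CPM in cml24-2 with Al, 189 and 118 CPM in cml24-2 without Al, 43.3 and 39.3 CPM in wild type with Al and 43.5 and 102 CPM in wild type without Al. Its transcript was thus present in both genotypes, and its level does not check the mutant label, since the lesion is not described. All 10 root markers were detected in every library. A list of 13 photosynthesis genes, which mark shoot tissue, summed to 126 and 151 CPM in cml24-2 with Al, 190 and 261 CPM in cml24-2 without Al, 65.8 and 31.1 CPM in wild type with Al and 103 and 156 CPM in wild type without Al.

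The wild-type libraries without Al stood apart from each other. Replicate 2 was above replicate 1 for 8 of the 10 JAZ genes, over 2-fold for 7 of them, with a median ratio of 3.82. The median difference between the replicates, taken without sign on log2(CPM + 1), was 0.92 for the JAZ genes and 0.17 for all tested genes. Adding 1 shrinks the differences of genes at few CPM, so these values are smaller than the ratios of CPM. The JAZ value was 0.38 for the pair of cml24-2 libraries with Al, 0.50 for the pair without Al, and 0.14 for wild type with Al. Where leaving out 1 of these libraries changed the calls among the JAZ genes, the lost calls or the log2 fold changes without it are given.

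Per length of transcript, JAZ1 was the most abundant member, with a mean of 211 FPKM over the 8 libraries. JAZ12 followed with 54.6 FPKM, JAZ2 with 40.8 FPKM, JAZ3 with 22.1 FPKM and JAZ6 with 13.1 FPKM. JAZ5 and JAZ9, at 6.13 and 6.10 FPKM, cannot be ordered, and JAZ7, JAZ10 and JAZ8, at 3.01, 2.69 and 1.73 FPKM, overlapped one another across libraries. The order is not the same in every library: JAZ1 spanned 46.3 to 359 FPKM and JAZ12 43.4 to 64.1 FPKM, and in wild type without Al, replicate 1, JAZ12 at 46.9 FPKM stood beside JAZ1 at 46.3 FPKM. JAZ5 spanned 0.55 to 16.1 FPKM, across the whole range of JAZ9, 5.47 to 7.31 FPKM.

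The members differed in how much they moved. The highest library was 32.3 times the lowest in CPM for JAZ5, 16.7 times for JAZ10, 8.01 times for JAZ1, 4.87 times for JAZ6 and 3.63 times for JAZ2. For JAZ3, JAZ12 and JAZ9 it was 1.71, 1.47 and 1.32 times. JAZ8 spanned 1 to 42 counts and JAZ7 2 to 56 counts, so their lowest libraries lie under 3 counts and no fold is given for them. This split into 7 variable and 3 steady members was made after the values were seen and has no test. Wild type without Al, replicate 1, was the lowest library for 6 of 10 members, and cml24-2 with Al, replicate 1, was the highest for 6.

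With Al present, JAZ transcripts were higher in cml24-2 than in wild type for 8 of 10 members, all of whose cml24-2 libraries lay above both wild-type libraries, and 3 members passed the test: JAZ5, JAZ2 and JAZ6. This comparison asks whether the line with altered CML24 differs from wild type under the same Al treatment. Of all genes tested, 8.02% were called, 4.63% higher and 3.39% lower, and 29.5% had libraries that did not overlap in the higher direction. The median log2 fold change was 1.36 over the JAZ genes and -0.0027 over all genes tested. In whole-root RNA, more cells that express a gene and more RNA per cell cannot be told apart.

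JAZ5, which with JAZ6 forms a pair of close paralogues, had 23.1 and 12.9 CPM in cml24-2 with Al, against 2.90 and 2.43 CPM in wild type with Al. Both mutant libraries lay far above both wild-type libraries. The log2 fold change was 2.75 (SE 0.65, 95% interval 1.29 to 4.21), a 6.71-fold higher level, with an adjusted p of 0.0357 by edgeR's quasi-likelihood test. JAZ6 had 41.3 and 30.1 CPM in cml24-2 with Al, against 13.9 and 14.2 CPM in wild type with Al, again with no overlap. Its log2 fold change was 1.34 (SE 0.34, edgeR adjusted p = 0.0472). Both genes carry the AACGTG form in the windows shown above.

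JAZ2, which is known for its part in guard cells, had 97.9 and 65.0 CPM in cml24-2 with Al, against 30.9 and 30.2 CPM in wild type with Al. The wild-type libraries were nearly equal, while the mutant pair spread over a wider range above them. The log2 fold change was 1.41 (SE 0.35, edgeR adjusted p = 0.0432). Its only match in the window was the G-box at 66 to 61 bases before the gene start.

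These 3 calls were close to the threshold. JAZ5 and JAZ2 each lost the call under 10 of 16 alternatives and JAZ6 under 9 of 16, with adjusted p up to 0.211 for JAZ5, 0.229 for JAZ2 and 0.248 for JAZ6, all still higher in cml24-2. Each of the 3 calls was lost when any 1 of the 4 libraries compared was left out. The median log2 fold change over the members was then 0.91 to 1.62. Leaving out either wild-type library without Al added calls among the members and over all genes. The median over the members was then 1.37 without replicate 1 and 1.36 without replicate 2. DESeq2 called JAZ6 and JAZ8.

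JAZ1, the first-described COI1 target among the repressors, had 511 and 411 CPM in cml24-2 with Al, against 122 and 134 CPM in wild type with Al. This was the widest separation in absolute CPM, with no overlap. The log2 fold change was 1.85 (SE 0.58, 95% interval 0.54 to 3.16), but the edgeR adjusted p was 0.0876. JAZ8 had 33 and 12 counts in the mutant libraries with Al, against 5 and 1 counts in wild type with Al, or 2.77 and 1.0 CPM against 0.41 and 0.09 CPM. Its log2 fold change of 2.84 came with a wide 95% interval, 0.67 to 5.01, and an edgeR adjusted p of 0.108. At so few counts the size of the difference is poorly fixed.

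JAZ10 had 11.9 and 5.60 CPM in cml24-2 with Al, against 3.07 and 3.64 CPM in wild type with Al (log2 fold change 1.38, SE 0.59, edgeR adjusted p = 0.194). JAZ7 had 4.70 and 3.85 CPM in cml24-2 with Al, against 2.99 and 2.08 CPM in wild type with Al (log2 fold change 0.75, SE 0.42, edgeR adjusted p = 0.321). Both sets of libraries were separate, with the mutant libraries above. In all, 6 members had an unadjusted p under 0.05 here: JAZ1, JAZ2, JAZ5, JAZ6, JAZ8 and JAZ10. The share of all genes at this unadjusted threshold was not taken, so that count has no background.

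The other 3 members differed little. JAZ9, which links jasmonate to DELLA proteins of gibberellin signalling, had 8.30 and 8.03 CPM in cml24-2 with Al and 7.88 and 7.10 CPM in wild type with Al (log2 fold change 0.12, 95% interval -0.26 to 0.50). JAZ12 had 62.9 and 68.2 CPM in cml24-2 with Al and 67.3 and 66.3 CPM in wild type with Al (log2 fold change -0.028, 95% interval -0.24 to 0.18). JAZ3, the member behind the dominant jasmonate-insensitive allele that helped define the family, had 28.8 and 34.2 CPM in cml24-2 with Al and 33.3 and 36.9 CPM in wild type with Al (log2 fold change -0.16, 95% interval -0.52 to 0.21). For these members a difference of 2-fold lies outside the interval.

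**Figure D2:**
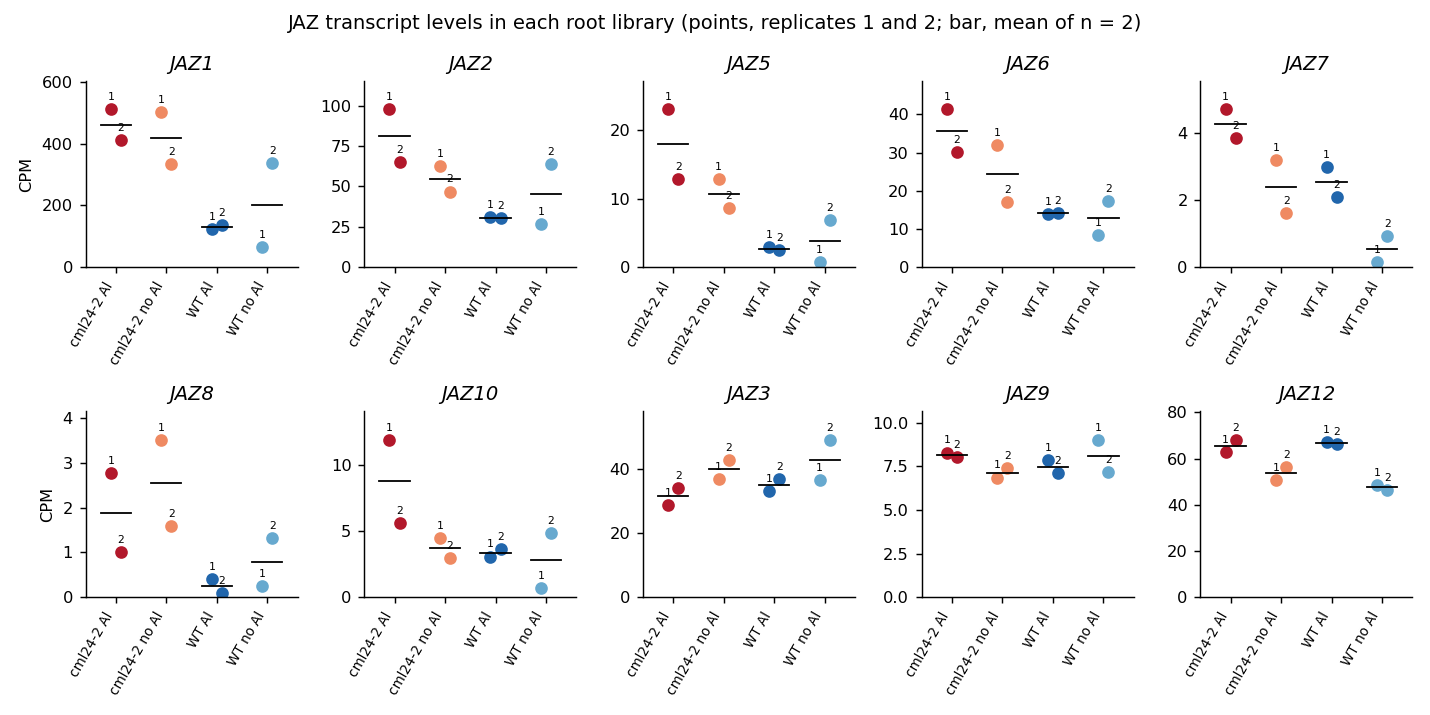
CPM of the 10 JAZ genes in each library, by group (horizontal axis); points are the 2 replicates, numbered, and bars their mean. JAZ1, JAZ2, JAZ5, JAZ6, JAZ7, JAZ8 and JAZ10 are higher in both cml24-2 libraries with Al than in both wild-type libraries with Al, JAZ3 and JAZ9 move little, and JAZ12 is higher with Al.

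Without Al, 1 member, JAZ7, was called higher in cml24-2 than in wild type and none lower, and which members were called depended on the wild-type library used, except that JAZ3, JAZ9 and JAZ12 were called under no alternative. Of all genes tested, 12.9% were called, 7.41% higher and 5.5% lower. JAZ7, which had 38 and 19 counts in cml24-2 without Al, against 2 and 11 counts in wild type without Al, was at 3.18 and 1.60 CPM in the mutant and at 0.16 and 0.91 CPM in wild type. Both mutant libraries lay above both wild-type libraries, 1 of which held fewer than 3 counts. The log2 fold change was 2.16 (SE 0.60, edgeR adjusted p = 0.0461). The call was lost under 11 of 16 alternatives, with adjusted p up to 0.240, among them every omission of a single library except wild type without Al, replicate 2.

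Of the members that were not called, JAZ5 and JAZ8 were also higher in both mutant libraries. JAZ5 had 12.8 and 8.57 CPM in cml24-2 without Al, against 0.71 and 6.85 CPM in wild type without Al (log2 fold change 1.51, SE 0.63, edgeR adjusted p = 0.149). JAZ8 had 3.52 and 1.60 CPM in cml24-2 without Al, against 0.24 and 1.32 CPM in wild type without Al (log2 fold change 1.72, SE 0.73, edgeR adjusted p = 0.156). JAZ12 made up the fourth member without overlap, with 50.9 and 56.5 CPM in the mutant against 48.5 and 46.5 CPM in wild type. These 4 members compare with 29.9% of all genes that did not overlap in the higher direction.

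For the remaining variable members the wild-type and mutant libraries overlapped. JAZ1 had 503 and 333 CPM in cml24-2 without Al, against 63.8 and 336 CPM in wild type without Al, so replicate 2 of wild type matched the lower mutant library. JAZ6 had 32.0 and 17.0 CPM in the mutant, against 8.49 and 17.2 CPM in wild type. JAZ2 had 62.7 and 46.9 CPM in the mutant, against 27.0 and 64.0 CPM in wild type, and JAZ10 had 4.44 and 2.94 CPM in the mutant, against 0.71 and 4.87 CPM in wild type. Only the first wild-type library was lower for these 4 members. Without replicate 2 of wild type, the median log2 fold change over the members was 1.94, and without replicate 1 it was 0.22. Over all genes tested these medians were -0.0021 and 0.00013. With both libraries 4 members had an unadjusted p under 0.05: JAZ5, JAZ6, JAZ7 and JAZ8. The share of all genes at this unadjusted threshold was not taken, so that count has no background either.

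**Figure D3:**
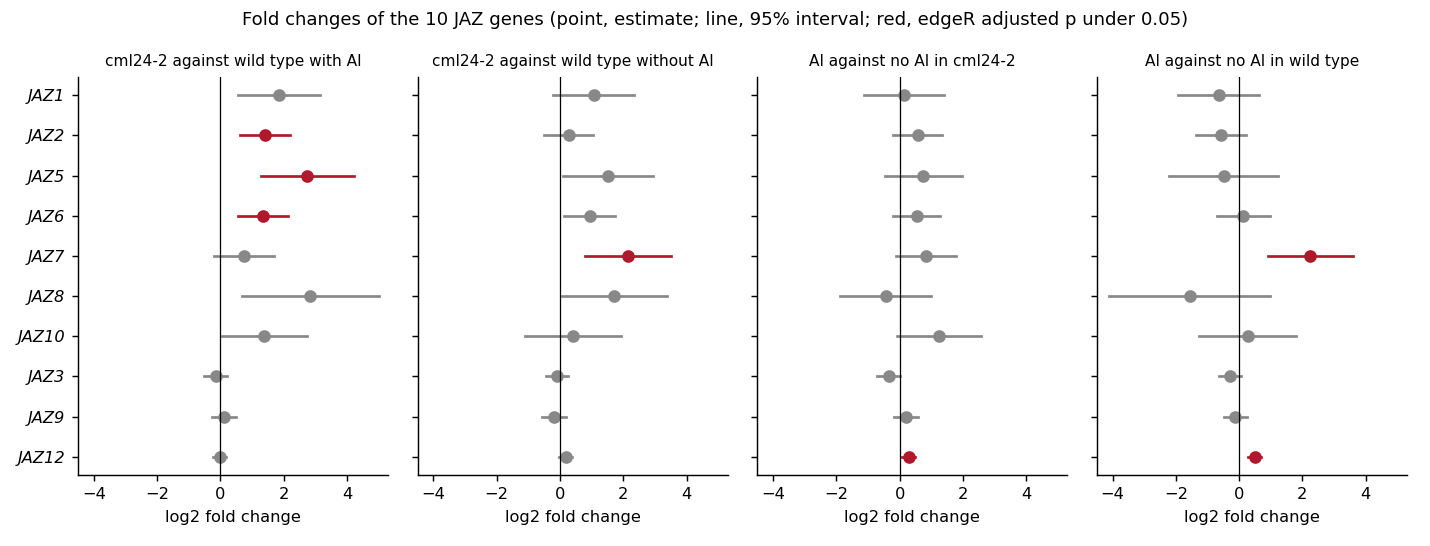
Log2 fold change (horizontal axis) of each JAZ gene in 4 comparisons; points are estimates, lines 95% intervals, and red marks an edgeR adjusted p under 0.05. JAZ2, JAZ5 and JAZ6 are red for cml24-2 against wild type with Al, JAZ7 without Al, JAZ12 for Al in cml24-2, and JAZ7 and JAZ12 for Al in wild type.

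In cml24-2, Al raised 1 member, JAZ12, and lowered none. Al moved much of the transcriptome, with 44.6% of all genes called in this line, 21.3% higher and 23.3% lower. The median log2 replicate difference in cml24-2 was 0.38 with Al and 0.50 without Al for the JAZ genes. For all genes it was 0.13 and 0.14, so 1 call of 10 cannot be set directly against these shares. The median log2 fold change was 0.42 over the JAZ genes and -0.0053 over all genes tested. JAZ12 had 62.9 and 68.2 CPM in cml24-2 with Al, against 50.9 and 56.5 CPM in cml24-2 without Al. The libraries did not overlap, and the log2 fold change was 0.29 (SE 0.09, edgeR adjusted p = 0.0332). The call was lost under 7 of 16 alternatives, with adjusted p up to 0.185, among them DESeq2, the fit to the 4 cml24-2 libraries alone, and leaving out either cml24-2 library with Al, cml24-2 without Al, replicate 1, or either wild-type library with Al.

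Further members lay higher with Al in both mutant libraries without passing the test, JAZ10 the furthest. JAZ10 had 11.9 and 5.60 CPM in cml24-2 with Al, against 4.44 and 2.94 CPM in cml24-2 without Al (log2 fold change 1.24, SE 0.58, edgeR adjusted p = 0.113). JAZ7 had 4.70 and 3.85 CPM with Al, against 3.18 and 1.60 CPM without Al, in the mutant (log2 fold change 0.83, edgeR adjusted p = 0.142). In all, 6 members had higher libraries with no overlap, as did 36.7% of all genes, and JAZ3 alone had lower ones, as did 38.2%. JAZ3 stood at 28.8 and 34.2 CPM with Al, against 37.0 and 43.0 CPM without Al, in cml24-2 (log2 fold change -0.34, edgeR adjusted p = 0.109). Leaving out either wild-type library without Al added calls among the members and over all genes. Without replicate 1 the median log2 fold change over the members was 0.44, against 0.016 over all genes tested. Without replicate 2 it was 0.42, against -0.0053.

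For JAZ1 any effect of Al in the mutant was smaller than the spread between replicates. It had 511 and 411 CPM in cml24-2 with Al, against 503 and 333 CPM in cml24-2 without Al (log2 fold change 0.14, 95% interval -1.12 to 1.40). The interval does not exclude a 2-fold difference in either direction.

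In wild type, Al raised JAZ7 and JAZ12 and lowered no member, where 51% of all genes were called, 25.1% higher and 25.9% lower. JAZ12 had 67.3 and 66.3 CPM in wild type with Al, against 48.5 and 46.5 CPM in wild type without Al. The 2 groups were tight and well apart. The log2 fold change was 0.49 (SE 0.09, edgeR adjusted p = 0.00209), and the call held under all 16 alternatives, with log2 fold changes of 0.45 to 0.50. JAZ12 shares 28 bases with AIP2 (AT5G20910) on the opposite strand. AIP2 had 37.7 and 38.7 CPM in cml24-2 with Al, 19.7 and 20.2 CPM in cml24-2 without Al, 55.4 and 51.0 CPM in wild type with Al and 17.1 and 20.2 CPM in wild type without Al. No source states whether reads were assigned by strand, so reads from the shared bases cannot be told apart.

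JAZ7 had 36 and 24 counts in wild type with Al, against 2 and 11 counts in wild type without Al, or 2.99 and 2.08 CPM against 0.16 and 0.91 CPM. Both Al libraries were higher than both libraries without Al. The log2 fold change was 2.25 (SE 0.59, edgeR adjusted p = 0.0115), and the call was lost under 1 of 16 alternatives, without wild type with Al, replicate 1, where the adjusted p was 0.0770. Its G-box ends 29 bases before the gene start.

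For the other 8 members the wild-type libraries with Al overlapped the range of the pair without Al. JAZ1 had 122 and 134 CPM in wild type with Al, against 63.8 and 336 CPM in wild type without Al. JAZ5 had 2.90 and 2.43 CPM with Al, against 0.71 and 6.85 CPM without Al, and JAZ10 had 3.07 and 3.64 CPM with Al, against 0.71 and 4.87 CPM without Al. In each case 1 control library was lower and the other higher than both Al libraries. The direction therefore depended on the control library. Without replicate 2, the log2 fold changes of JAZ1, JAZ5 and JAZ10 were 1.0, 1.89 and 2.21. Without replicate 1 they were -1.42, -1.38 and -0.56. The median over the members was 0.59 without replicate 2 and -0.54 without replicate 1, against -0.0081 and -0.0080 over all genes tested. With both control libraries the median over all 10 members was -0.20, against -0.00048 for all genes tested. Of the 10, 2 had higher libraries with no overlap and none lower ones, against 37.9% and 37.8% of all genes. Beside these Al comparisons, 10 of 10 root markers were lower with Al in both lines. Of the shoot photosynthesis genes, 7 of 13 were lower with Al in cml24-2 and 9 of 13 in wild type. Of all genes, 23.3% were lower with Al in cml24-2 and 25.9% in wild type. The root marker count was 9 or 10 in both lines without any 1 library. The shoot count in cml24-2 was 0 to 4 without any 1 of the 4 cml24-2 libraries and 9 or 10 without either wild-type library without Al. In wild type it was 6 without wild type with Al, replicate 2, 12 without wild type without Al, replicate 1, and 8 or 9 without any other library. The root markers summed to 529 and 591 CPM in cml24-2 with Al, 1738 and 2311 CPM in cml24-2 without Al, 562 and 580 CPM in wild type with Al and 2132 and 2996 CPM in wild type without Al. The part of this shift in the JAZ levels was not tested.

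The genotype by Al interaction asks whether Al changed a gene by a different factor in cml24-2 than in wild type. By edgeR it was called for 0 of 10 members and for 0.301% of all genes (0.0987% higher and 0.202% lower), and DESeq2 also called 0 members. JAZ2 alone had an unadjusted p under 0.05, a threshold at which the share of all genes was not taken. Its interaction was 1.14 on the log2 scale (SE 0.49, 95% interval 0.04 to 2.25, edgeR adjusted p = 0.392). Without wild type without Al, replicate 1, the median interaction over the members was 1.23 on the log2 scale, against 0.0098 over all genes tested. Without replicate 2 it was -0.41, against -0.019. The higher level of JAZ5, JAZ2 and JAZ6 in cml24-2 was therefore called with Al and not without it, but the difference between those comparisons did not pass a test of its own.

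The list of receptor and co-repressor genes, named for most of its members, had no calls between genotypes, with or without Al. It holds 7 genes. They are COI1, its partners SKP1 and CUL1, the adaptor NINJA, the co-repressor TPL, the histone deacetylase HDA6 and the Mediator subunit PFT1 (MED25). PFT1 is neither a receptor nor a co-repressor. Al raised 2 of 7 in cml24-2, where 21.3% of all genes were higher, TPL (log2 fold change 0.52) and CUL1 (0.36), and 3 of 7 in wild type, where 25.1% of all genes were higher, PFT1 (0.52), TPL (0.43) and CUL1 (0.42). Of 6 further JAZ and TIFY genes 5 were tested, and none was called between genotypes. JAZ11 was higher with Al in both lines (log2 fold change 0.60 in cml24-2 and 0.68 in wild type), TIFY8 was lower in both (-0.89 in cml24-2 and -0.86 in wild type), and JAZ4 was lower in wild type (-0.85).

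Genes of jasmonate synthesis are known MYC2 targets. Of 11 tested jasmonate synthesis genes, 6 were higher and 0 lower in cml24-2 than in wild type with Al, against 4.63% and 3.39% of all genes. They were the lipoxygenases LOX3 (log2 fold change 3.15) and LOX4 (3.13), the allene oxide synthase AOS (1.81), the ligase OPCL1 (1.56), the cyclase AOC3 (1.45) and the reductase OPR3 (0.41). Leaving out any 1 of the 4 libraries compared left none of them called. LOX3 had 20.5 and 9.03 CPM in cml24-2 with Al, against 2.41 and 0.87 CPM in wild type with Al. In wild type without Al it had 1 and 25 counts, the first under 3 counts, so its difference between genotypes without Al is poorly fixed in size. Without Al, LOX3 alone of this list was called between genotypes (3.27), 5 genes were called without wild type without Al, replicate 2, and none was called without cml24-2 without Al, replicate 1.

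Of 9 tested jasmonate transcription regulators, 3 were higher and 0 lower in cml24-2 with Al, against 4.63% and 3.39% of all genes. ORA47, an activator of synthesis genes, had a log2 fold change of 4.31 (SE 1.08, edgeR adjusted p = 0.0449). The others were MYC2, the main JAZ target (1.84, SE 0.32, edgeR adjusted p = 0.0131), and JAV1, a repressor of defence (0.89). MYC2 had 387 and 293 CPM in cml24-2 with Al, 380 and 247 CPM in cml24-2 without Al, 97.4 and 91.9 CPM in wild type with Al and 128 and 268 CPM in wild type without Al. As for JAZ1, both cml24-2 libraries with Al lay above both wild-type libraries with Al, and the wild-type pair without Al was spread widely. Its close relatives MYC3 and MYC4 were not called between genotypes. Without Al, 1 of the 9 was higher and 0 lower in cml24-2, against 7.41% and 5.5% of all genes. Al gave 3 higher and 0 lower in cml24-2, where 21.3% of all genes were higher and 23.3% lower. In wild type Al gave 3 higher and 2 lower, where 25.1% of all genes were higher and 25.9% lower. The 2 lower in wild type were MYC2 (-1.07) and ORA47 (-3.13). Both calls were lost without either wild-type library with Al or without the second library without Al, and 1 of them without either cml24-2 library with Al. None of the 3 genotype calls was kept when cml24-2 with Al, replicate 1, or either wild-type library with Al was left out.

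Among 8 tested genes of jasmonate inactivation, 0 were higher and 1 lower in cml24-2 with Al, against 4.63% and 3.39% of all genes. Without Al 3 were higher and 0 lower, against 7.41% and 5.5% of all genes. There CYP94B3, a hydroxylase of the active hormone, was 2.51 higher on the log2 scale. That count of 3 fell to 1 when any library but wild type without Al, replicate 1, was left out. Al itself gave 3 higher and 1 lower in cml24-2, where 21.3% of all genes were higher and 23.3% lower. In wild type it gave 5 higher and 2 lower, where 25.1% of all genes were higher and 25.9% lower. CYP94C1, a further oxidase of the hormone, was higher in both (1.72 in cml24-2 and 1.40 in wild type). With single libraries left out, the counts for Al were 2 or 3 higher and 0 to 2 lower in cml24-2 and 4 or 5 higher and 1 or 2 lower in wild type, and the count lower in cml24-2 with Al was 0 to 3. Of 9 output genes on the list 3 were tested, NAC019, NAC3 (ANAC055) and TAT3. Without Al, NAC019 had 2 and 1 counts in cml24-2 and 0 and 0 in wild type, and TAT3 had 4 and 1, and 1 and 15. All 3 were higher with Al in both lines. NAC019 and TAT3 passed the filter on low counts only through their libraries with Al. Their direction was thus largely fixed by that filter. The shares of all genes that were higher, 21.3% in cml24-2 and 25.1% in wild type, are therefore no background for them. None was called between genotypes. In cml24-2 the count was 1 or 2 without any 1 library except the wild-type libraries without Al, and in wild type it was 1 without wild type with Al, replicate 1. The storage protein genes VSP1 and VSP2, standard reporters of the pathway in shoots, stayed at or below 0.42 CPM in every library and were not tested.

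Touch and wounding are standard inducers of JAZ transcripts. A list of 21 such genes includes CML24 as TCH2 along with TCH3, TCH4, ZAT10, WRKY40 and ERF5. With Al, 11 were higher and 0 lower in cml24-2 than in wild type, with a median log2 fold change of 1.74. Without Al, 9 were higher and 0 lower, with a median of 1.60. Of all genes, 4.63% were higher and 3.39% lower with Al, and 7.41% and 5.5% without Al. The count with Al was 1 or 2 without any of the 4 libraries compared and 19 without either wild-type library without Al. The count without Al was 1 without cml24-2 without Al, replicate 1, 20 without wild type without Al, replicate 2, and 5 or 10 without any other library. The list summed to 6644 and 5967 CPM in cml24-2 with Al, 4499 and 3081 CPM in cml24-2 without Al, 2638 and 2729 CPM in wild type with Al and 702 and 2185 CPM in wild type without Al. The 10 JAZ genes summed to 792 and 640 CPM, 717 and 519 CPM, 284 and 297 CPM and 195 and 534 CPM in the same 4 groups. In both sums wild type without Al, replicate 1, was lowest, and its partner was above it for 21 of 21 touch and wound genes, by a median ratio of 3.42.

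The shoot photosynthesis genes moved in the same direction between genotypes. With Al, 6 of 13 were higher and 0 lower in cml24-2, against 4.63% and 3.39% of all genes. The median log2 fold change was 1.84, and only LHCB2.2 was at 0 in a library, wild type with Al, replicate 2. The count with Al was 1 without cml24-2 with Al, replicate 1, 2 without replicate 2, 1 without wild type with Al, replicate 2, and 11 without either wild-type library without Al. Without Al 0 of 13 were called by edgeR, with a median of 0.91, and 7 without wild type without Al, replicate 2. The part of shoot tissue or of handling in the JAZ levels was not tested.

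**Figure D4:**
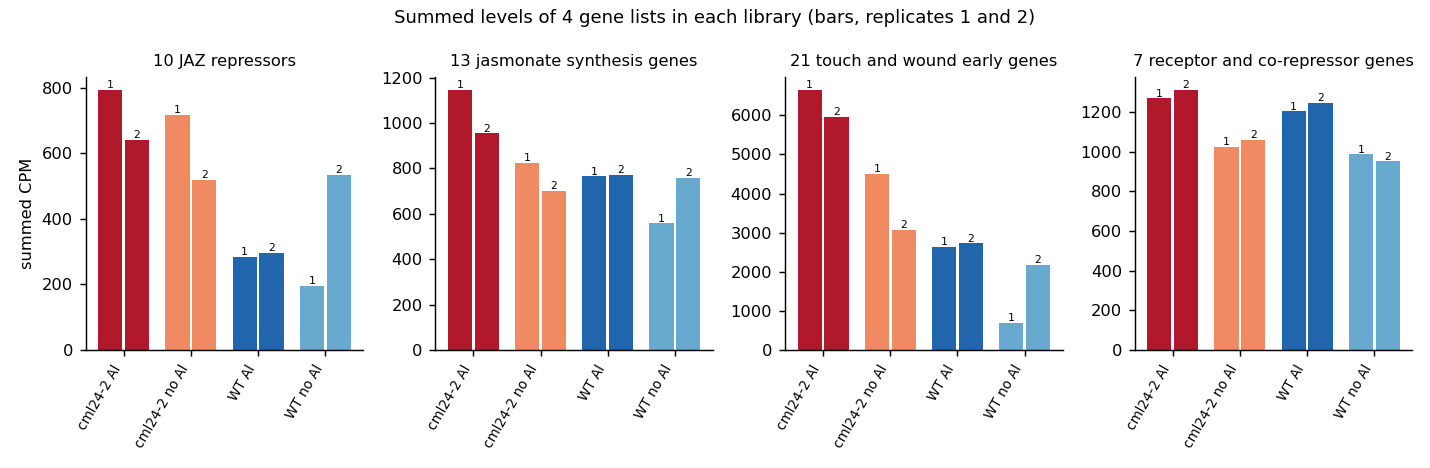
Summed CPM (vertical axes, from 0) of the JAZ genes, jasmonate synthesis genes, touch and wound early genes and receptor and co-repressor genes in each library; bars are replicates 1 and 2 of each group. Wild type without Al, replicate 1, is lowest for the first 3 lists, and the receptor and co-repressor sum lies between 950 and 1309 CPM in every library.

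To name the genes most like the JAZ genes, log2(CPM + 1) of each of the 10 members was centred and scaled to equal variance over the 8 libraries. These values were averaged into a profile, in which steady and variable members weigh alike. Pearson's r with the profile was taken for 15891 genes with a mean of at least 5 CPM. The libraries are shared by all genes, so r is a description. The 5 highest were AT1G32920, AT4G24380, AT4G36500, AT1G14480 and ERF5, each with r = 0.99, and 195 genes exceeded 0.9. ERF5, an ethylene response factor, had 277 and 244 CPM in cml24-2 with Al, 153 and 111 CPM in cml24-2 without Al, 78.4 and 78.1 CPM in wild type with Al and 31.5 and 110 CPM in wild type without Al. AT1G32920 had 206 and 168 CPM, 143 and 116 CPM, 65.4 and 65.6 CPM and 36.3 and 101 CPM in the same groups.

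Within the family, r between a member and the profile of the other members was 0.98 for JAZ5, 0.96 for JAZ6, 0.91 for both JAZ2 and JAZ1, 0.89 for JAZ10 and 0.73 for both JAZ7 and JAZ8. It was 0.11 for JAZ12, -0.37 for JAZ9 and -0.44 for JAZ3. Among the 21 pairs of the 7 variable members r ran from 0.47 to 0.97, with a median of 0.86. Of the pathway lists, r with the profile was over 0.8 for 14 of 21 touch and wound genes, 6 of 11 synthesis genes and 4 of 9 transcription regulators, and for no gene of the receptor, inactivation, output or further JAZ lists. The share over 0.8 among the 15891 genes was not taken, and their median r was -0.019.

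The isoforms of JAZ10 are part of its biology, but the files list 1 length per gene and library and no isoform counts. JAZ10 has 7 annotated transcripts of 1202 to 1898 bases, and its listed length was 1763 and 1776 bases in cml24-2 with Al, 1739 and 1723 bases in cml24-2 without Al, 1555 and 1616 bases in wild type with Al and 1437 and 1761 bases in wild type without Al. The lowest came from the library with only 9 counts of the gene. JAZ10 shares 71 bases with AT5G02045 and JAZ12 shares 211 bases with AT5G03235, each on the opposite strand, and neither of those genes has a value here. All 80 counts of the 10 members were whole within 0.005, so no fractional share of a read was assigned to any of them.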

How the data were processed

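Expression was measured by RNA-seq of roots on the BGISEQ-500 platform, per the labels' protocols. The deposited expected counts, and the authors' FPKM (scaled to gene length and library size), came from RSEM, per the submitters' processing notes. Its version, the aligner, the build and strand use were not given in the sources used here. Genes absent from a library's file were taken as 0. Of 24279 identifiers, 24086 matched a RefSeq TAIR10.1 locus.

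Expected counts were rounded and fitted with edgeR 4.0.16 in R 4.3.3: filterByExpr, TMM, group means over all 8 libraries, quasi-likelihood F tests, and Benjamini-Hochberg adjustment over 20262 genes at 0.05. CPM use normalized library sizes. SE and intervals derive from F, and the common biological coefficient of variation was 11.0%. The fit was tested on simulated data. Contrasts share libraries, so their results are not independent. Alternatives used DESeq2 1.42.0, limma 3.58.1 on log2(FPKM + 1) or log2(FPKM + 0.1), other scaling and filters, a replicate block, the compared libraries alone, and each library left out. All members were described, and like genes were named by rank of r. Members and lists were chosen with earlier results of these data known. Intervals cover the spread between libraries of n = 2, and 3 counts mark the floor.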

Additional observations from a re-analysis of the deposited data

How the results depend on the processing

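Of 790 comparisons of a member's log2 fold change with an alternative, 682 kept direction and side of the threshold, 34 gained a call, 48 lost one and 26 changed sign. Counts of members called higher moved as follows. For cml24-2 against wild type with Al (3 called), the 4 libraries alone gave 6, while the replicate block and limma with either pseudocount gave 0. Without Al (1 called), the 4 libraries alone, no filter, the replicate block and limma with 0.1 gave 0. For Al in cml24-2 (1 called), DESeq2 gave 0 and the 4 libraries alone 2, and the replicate block called 1 lower. Over all genes, the 4 libraries alone gave 3268 calls for genotype with Al, against 1625, and 844 without Al, against 2616, and DESeq2 gave 200 for the interaction, against 61. Leaving out single libraries gave 0 to 6 members higher for genotype with Al (all genes 149 to 2824), 0 to 7 without Al (846 to 3109), 0 to 4 higher and 0 to 1 lower for Al in cml24-2 (6542 to 10053), 1 to 5 higher and 0 to 4 lower for Al in wild type (7817 to 10035), and 0 to 2 higher for the interaction (12 to 494). The cause was not tested.

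For 19 results the sign changed when a library was left out, and their log2 fold changes then ranged as follows. For Al in wild type they ran from -1.42 to 1.0 for JAZ1, -1.09 to 0.18 for JAZ2, -1.38 to 1.89 for JAZ5, -0.31 to 0.73 for JAZ6, -3.01 to 0.090 for JAZ8, -0.27 to 0.036 for JAZ9 and -0.56 to 2.21 for JAZ10. The ends lay at omission of 1 of the wild-type libraries without Al, except the lower end of JAZ8, without wild type with Al, replicate 1. Limma with 0.1 put JAZ5 at 0.17. For Al in cml24-2 they ran from -0.13 to 0.47 for JAZ1 and -1.34 to 0.24 for JAZ8. For genotype without Al they ran from -0.27 to 1.02 for JAZ2, -0.35 to 0.13 for JAZ3 and -0.45 to 2.35 for JAZ10, with both ends at the wild-type libraries without Al. For genotype with Al JAZ12 ran from -0.088 to 0.030. For the interaction they ran from -0.86 to 1.58 for JAZ1, -0.28 to 0.19 for JAZ3, -1.14 to 2.15 for JAZ5, -0.18 to 0.94 for JAZ6, -0.53 to 2.57 for JAZ8 and -0.97 to 1.83 for JAZ10, each with its lower end without wild type without Al, replicate 2.

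Correlations of replicate differences between groups ran from -0.21 to 0.21 over all tested genes. They cannot decide whether the replicate numbers pair the samples. In both cml24-2 groups replicate 1 was above replicate 2 for JAZ1, JAZ2, JAZ5, JAZ6, JAZ7, JAZ8 and JAZ10, and below it for JAZ3 and JAZ12. In wild type without Al replicate 1 was below for those variable members. With n = 2, leaving out a library assumes that the lone one varies like the other groups. JAZ7 and JAZ8 rest on 56 counts or fewer per library, which limits their values.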
